A study of Rattus norvegicus with 8 samples.

Results

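The 9 arms of the imprinted miRNA hairpins that lie antisense to Rtl1 were followed across every array of the study. They were chosen by name, as the listed arms of miR-127, miR-136, miR-431, miR-433 and miR-434, and the rule uses no measured value. The 9 arms were all among the 422 rat miRNAs that passed the detection filter (both arrays of any group) and were tested. A further 336 miRNAs on the array were not tested. Left medial vestibular nuclei (MVN) of male Sprague–Dawley rats, 7 weeks old, were compared after a unilateral labyrinthectomy on the left side (UVD group) or a sham operation on the same side (SO group), at 4 h and at 4 d. Labyrinthectomy opened the vestibule and rinsed it with ethanol, which removes the vestibular input of that side. Sham animals had the ear opened and the ossicles other than the stapes removed, so both groups carried that part of the surgery. The study reports no measure of hearing in either group. There was no unoperated group. Each of the 4 groups (UVD 4 h, UVD 4 d, SO 4 h and SO 4 d) had 2 arrays, and each array held RNA pooled from 3 rats, so that the spread between arrays is one between pools.

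The hairpins belong to the Dlk1-Dio3 domain, an imprinted region whose noncoding RNAs are made from the maternal chromosome while Dlk1, Rtl1 and Dio3 are made from the paternal one. Because they are copied from the strand opposite to Rtl1, a retrotransposon-derived coding gene, these miRNAs match the Rtl1 mRNA along their whole length and can direct its cleavage, in addition to the usual seed-based repression of other mRNAs. The domain is active in the brain, where many of its miRNAs are neuronal. The sequences below show why each arm is counted as a miRNA of its own. Capitals mark the seed, bases 2 to 8, through which a miRNA finds most of its targets, and the order is that of the hairpins along the chromosome. Of the 9 arms, 7 were matched by name to RefSeq; miR-127-5p and miR-136-5p were not matched.
rno-miR-431: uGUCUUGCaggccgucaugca
rno-miR-433-5p: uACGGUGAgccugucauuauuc
rno-miR-433-3p: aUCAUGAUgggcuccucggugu
rno-miR-127-3p: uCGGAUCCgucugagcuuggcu
rno-miR-434-5p: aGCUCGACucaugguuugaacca
rno-miR-434-3p: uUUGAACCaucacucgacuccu
rno-miR-136-3p: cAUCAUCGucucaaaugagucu

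The 7 seeds were all different, and none was shared with any other of the 693 rat mature miRNA names in the RefSeq table. Every hairpin lay on the + strand of chromosome 6 (GRCr8) within the annotated span of Rtl1. The first was miR-431 at chr6:134326449-134326562, followed by miR-433 at chr6:134327358-134327450 and miR-127 at chr6:134328454-134328550. Further along came miR-434 at chr6:134330402-134330482 and miR-136 at chr6:134331335-134331416. All 5 hairpins fitted within 4968 bases, with gaps of 795, 1003, 1851 and 852 bases between neighbors. The array files hold no coordinates of their own, so these positions come from RefSeq alone.

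Among the 7 matched arms, both arms of miR-434 shared the longest run of letters. In the hairpin below the arms are in capitals, and the 9-base run UUUGAACCA opens miR-434-3p and closes miR-434-5p, starting at its base 15. No other pair of matched arms shared more than 5 bases in a row.
rno-mir-434 hairpin: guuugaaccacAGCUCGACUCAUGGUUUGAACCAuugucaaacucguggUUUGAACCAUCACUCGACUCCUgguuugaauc

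All 8 arrays lay on 1 slide. The 2 UVD groups filled 1 row and the 2 SO groups the other, with the timepoints in separate columns, so that position on the slide and group cannot be told apart. Between 378 and 430 miRNAs were detected per array. The lowest number was that of UVD 4 h replicate 2, and the medians of the comparisons that use it are given without it as well. All 9 Rtl1-antisense arms were detected on 8 of 8 arrays, and each of their 1152 spots was well above background with none saturated. Values are total gene signals (the scanner's summed intensity of a miRNA's 16 spots) after quantile normalization over the 8 arrays, and for the 9 arms the scanner software gave an error of 5.53% to 9.27% of the signal. Probes differ in brightness for reasons of sequence, so no level of an arm is set against that of another. Equal values on different arrays are ties left by quantile normalization. The 7 miRNAs listed as neuronal markers, such as miR-124-3p, and both hindbrain markers, the Hox cluster miRNAs miR-10a-5p and miR-10b-5p, were detected on every array. Markers of choroid plexus, leukocytes, blood and muscle were detected too.

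The miR-431 hairpin stands first in the group, and miR-431 is best known from muscle stem cells and from regrowing sensory axons. Its normalized intensity was 88.4 and 87.4 on the SO 4 h arrays, 86.2 and 81.0 on the SO 4 d arrays, 91.6 and 98.4 on the UVD 4 h arrays, and 74.9 and 95.0 on the UVD 4 d arrays. Both UVD 4 h arrays stood above both SO 4 h arrays. The UVD 4 d arrays were far apart, with the other 6 arrays between them except UVD 4 h replicate 2.

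Both arms of the miR-433 hairpin were measured, and miR-433 is known to repress Fgf20 and Hdac6. The normalized intensity of miR-433-5p was 157 and 164 on SO 4 h, 152 and 139 on SO 4 d, 145 and 159 on UVD 4 h, and 145 and 142 on UVD 4 d. For miR-433-3p the values were 197 and 180 on SO 4 h, 168 and 152 on SO 4 d, 164 and 177 on UVD 4 h, and 142 and 150.3 on UVD 4 d. The 3p arm was lower on every array of 4 d than on the arrays of 4 h in the same group, whereas the 5p arm overlapped between timepoints after UVD.

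miR-127 is the arm pair for which cleavage of the Rtl1 mRNA is best known. The normalized intensity of miR-127-5p was 239.6 and 224 on SO 4 h, 209 and 193 on SO 4 d, 193 and 197 on UVD 4 h, and 197 and 193 on UVD 4 d. On the same arrays miR-127-3p stood at 8875 and 7267 (SO 4 h), 6745 and 6045 (SO 4 d), 7029 and 6745 (UVD 4 h), and 5418 and 5604 (UVD 4 d). The SO 4 h arrays were the highest for both arms. After UVD the 5p arm had the same pair of values at both timepoints, while the 3p arm was lower on both 4 d arrays.

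The miR-434 hairpin, whose arms carry the shared run above, gave a tight 3p arm and a more variable 5p arm. The normalized intensity of miR-434-5p was 289 and 304 on SO 4 h, 284 and 252 on SO 4 d, 284 and 298 on UVD 4 h, and 271 and 224 on UVD 4 d. For miR-434-3p it was 5418 and 5271 on SO 4 h, 4773 and 4505 on SO 4 d, 5151 and 4964 on UVD 4 h, and 4505 on both UVD 4 d arrays. In either operation group both arms were lower on the 4 d arrays than on the 4 h arrays.

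The last hairpin is that of miR-136, another arm pair that pairs with the Rtl1 mRNA. The normalized intensity of miR-136-5p was 2949 and 2801 on SO 4 h, 2801 and 2594 on SO 4 d, 2422 and 2495 on UVD 4 h, and 2594 and 2111 on UVD 4 d. miR-136-3p was at 1201 on both SO 4 h arrays, 1115 and 1030 on SO 4 d, 1030 and 1046 on UVD 4 h, and 1014 and 987 on UVD 4 d. The 5p arm overlapped between 4 h and 4 d in either operation group, the SO groups sharing a tied value. For the 3p arm, the SO 4 h arrays stood above all others and the UVD 4 d arrays below all others.

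**Figure D1:**
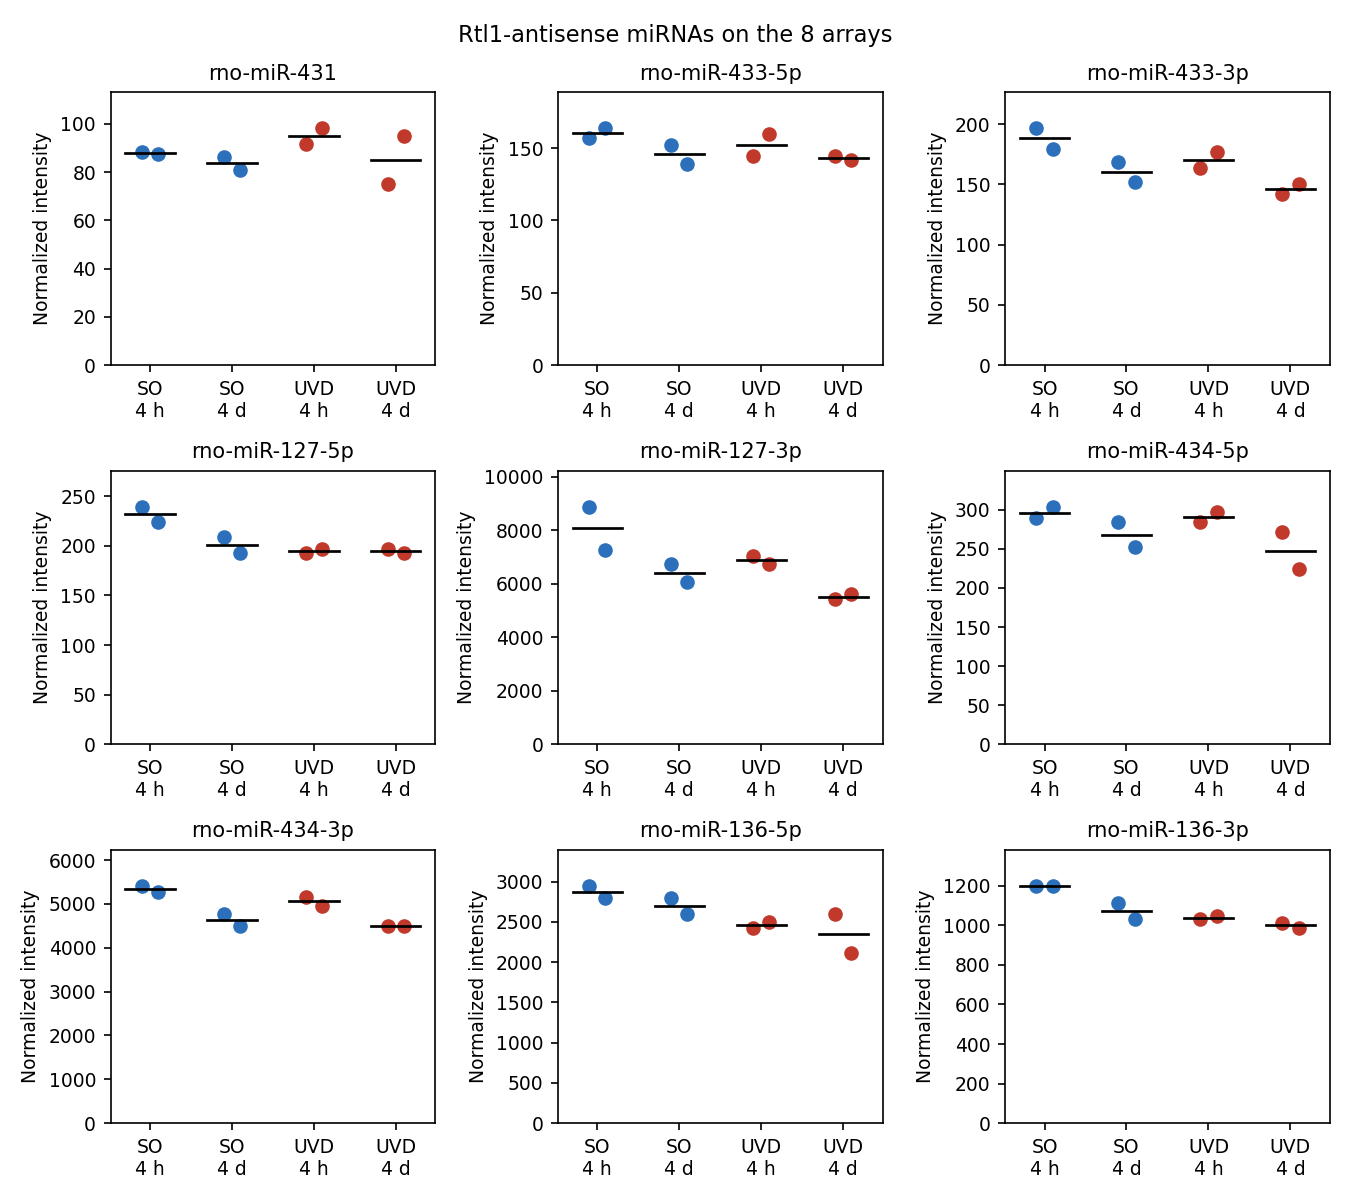
Normalized intensity (linear scale, from 0) of each of the 9 arms on the 8 arrays, SO groups in blue and UVD groups in red; points are arrays and bars are means of 2. The SO 4 h mean is the highest in 8 of 9 arms and the UVD 4 d mean the lowest in 8 of 9 arms after quantile normalization, miR-431 being the exception in both; scaling on the 75th percentile of all miRNAs turned the SO time change positive in 4 arms and the 4 h UVD difference positive in 3 arms that were negative.

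Set side by side, 8 of 9 arms had their highest group mean in SO 4 h, and 8 of 9 had their lowest in UVD 4 d, where miR-127-5p was tied with UVD 4 h. Over all 422 miRNAs tested, SO 4 h held the highest mean in 37.0% and UVD 4 d the lowest in 32.9%. The exception was miR-431, with its highest mean in UVD 4 h (95.0 ± 4.82, SD, n = 2) and its lowest in SO 4 d (83.6 ± 3.62, SD, n = 2). In miR-127-3p, both miR-433 arms and both miR-434 arms the order of means was SO 4 h, UVD 4 h, SO 4 d, UVD 4 d. In miR-127-5p and both miR-136 arms SO 4 d and UVD 4 h changed places. Not all neighbors in these orders were apart: UVD 4 h and SO 4 d overlapped in miR-127-3p, whose means were 8071 ± 1137, 6887 ± 201, 6395 ± 494.8 and 5511 ± 132 in that order (SD, n = 2 each). All 3 neighboring pairs overlapped in miR-433-5p and miR-434-5p. In miR-136-3p only SO 4 d (1073 ± 60.1) and UVD 4 h (1038 ± 10.9) overlapped, between SO 4 h (1201 ± 0) and UVD 4 d (1000.3 ± 18.8; SD, n = 2 each). In miR-434-3p only SO 4 d (4639 ± 189) and UVD 4 d (4505 ± 0) overlapped.

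The arms' pooled SD between arrays of a group was 0.04 to 0.13 on the log2 scale. Its median was 0.09, against 0.12 over all 422 miRNAs and 0.10 over 50 other miRNAs of the Dlk1-Dio3 domain. The SDs of miR-431 (0.13), miR-434-5p (0.12), miR-127-3p (0.12) and miR-136-5p (0.12) were near or above the median of all miRNAs. From the lowest to the highest of the 8 arrays the arms spanned between 1.18-fold (miR-433-5p) and 1.64-fold (miR-127-3p), with a median of 1.31-fold against 1.38-fold over all miRNAs. Centred on their own means and averaged, the 9 arms were at 0.17 and 0.12 log2 on the SO 4 h arrays, 0.03 and −0.10 on SO 4 d, −0.0037 and 0.04 on UVD 4 h, and −0.12 and −0.14 on UVD 4 d. The SO 4 d arrays were the least alike in this average, and the UVD 4 d arrays the most alike.

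**Figure D2:**
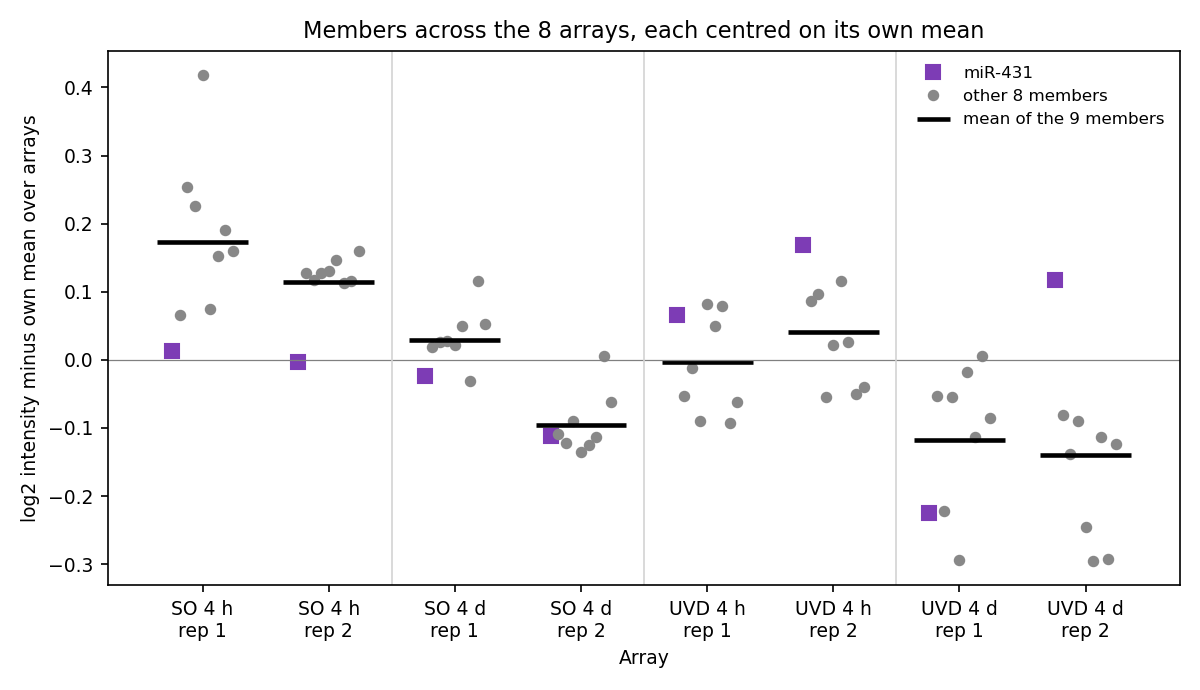
Log2 normalized intensity of each arm minus its own mean over the 8 arrays (y axis) on each array (x axis); grey points are 8 arms, purple squares miR-431 and black bars the mean of the 9 arms. The black bars run from 0.17 on SO 4 h replicate 1 to −0.14 on UVD 4 d replicate 2, and miR-431 lies above the bar on both UVD 4 h arrays and below it on both SO 4 h arrays.

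The first comparison was that of the timepoints within the SO group, which shows what changed after the operation without the loss of the labyrinth. No arm passed limma's test at an adjusted p under 0.05 (the p is adjusted over all 422 miRNAs), where 1.66% of all miRNAs did. All 9 arms had negative log2 fold changes from 4 h to 4 d, and in 8 of 9 the 4 d arrays lay below the 4 h arrays, against 28.7% of all miRNAs. No arm was higher without overlap, against 25.6% of all. The median change of the arms was −0.16 log2, against 0.00 over all miRNAs. An unadjusted p under 0.05 was found for 5 arms, all lower, against 14.5% of all miRNAs that were lower by that rule. That count was 0 without SO 4 h replicate 1, 0 without SO 4 d replicate 2, 2 without UVD 4 h replicate 1, and 3 to 5 without any other array. The lowest p was that of miR-434-3p, with a log2 fold change of −0.20 (SE 0.06, 95% interval −0.35 to −0.06, limma adjusted p = 0.148). miR-127-3p had the largest change at −0.33 (SE 0.11, interval −0.62 to −0.04, limma adjusted p = 0.173). Next to it were miR-433-3p at −0.23 (limma adjusted p = 0.194), miR-127-5p at −0.21 (adjusted p = 0.165) and miR-136-3p at −0.16 (adjusted p = 0.183). The other 4 arms were between −0.15 (miR-434-5p) and −0.07 (miR-431).

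How the arrays were scaled moved this comparison. When arrays were brought to a common 75th percentile over every miRNA, the median of all 422 miRNAs itself moved to 0.20 log2 and that of the arms to −0.05, and miR-136-5p, miR-136-3p, miR-433-5p and miR-434-3p turned positive (0.0663, 0.0130, 0.0245 and 0.0304). No arm then had an unadjusted p under 0.05, and 2 had with the values as the authors normalized them. Relative to the median of all miRNAs, the arms were lower by 0.17 with quantile normalization and by 0.26 with that scaling. The SO 4 h arrays also stood apart in the hindbrain markers. The summed normalized intensity of miR-10a-5p and miR-10b-5p was 709 to 748 there, against 258 to 359 on SO 4 d, 334 to 335 on UVD 4 h and 264 to 278 on UVD 4 d, and both passed the test between SO timepoints. The summed neuronal markers were 68188 to 71702 on SO 4 h and 67360 to 70918 on SO 4 d, so these ranges overlapped. The median change of the 7 neuronal markers was −0.06 log2, and 1 of them passed the test between SO timepoints. Higher on SO 4 d without overlap were the sums for microglia and leukocytes (3161 to 3178, then 3665 to 3824), muscle (1599 to 2001, then 2022 to 2380), choroid plexus (3860, then 3991 to 4211) and blood (934 to 955, then 1018 to 1061), with no member past the test. The medians of these lists were 0.33, 0.63, 0.09 and 0.26 log2 in that order. The part of these markers in the arms' difference was not tested. In tissue RNA of this kind, fewer cells that make a miRNA and less of it per cell cannot be told apart.

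The same step from 4 h to 4 d within the UVD group covers the days in which animals recover balance. Again 0 arms passed limma's adjusted test, as did 0% of all miRNAs, while 2 arms had an unadjusted p under 0.05, against 6.4% of all miRNAs that were lower by that rule. 8 arms had negative changes and miR-127-5p one of 0.00 (95% interval −0.17 to 0.17). In 5 of 9 arms, miR-127-3p, miR-136-3p, miR-433-3p and both miR-434 arms, the 4 d arrays lay below the 4 h arrays, against 25.4% of all miRNAs, and in none were they above, against 19%. The median change was −0.17 log2, against −0.01 over all. miR-127-3p was again the largest at −0.32 (SE 0.11, interval −0.61 to −0.03, limma adjusted p = 0.298). It was followed by miR-434-5p at −0.24 (limma adjusted p = 0.364), miR-433-3p at −0.22 (adjusted p = 0.316), miR-431 at −0.17 (adjusted p = 0.506) and miR-434-3p at −0.17 (adjusted p = 0.283). The 4 h end of this comparison rests in part on the array with the fewest detected miRNAs. Without UVD 4 h replicate 2 the median of the arms was −0.11, and without UVD 4 d replicate 2 it was −0.10. The count of arms with an unadjusted p under 0.05 was 0 without either UVD 4 h array and 1 without UVD 4 d replicate 2. Summed markers of choroid plexus (3991 on UVD 4 h, 5220 to 6900 on UVD 4 d) and of microglia and leukocytes (3444 to 3497, then 3853 to 4137) were higher at 4 d, with medians of 0.61 and 0.61 log2 and no member past the test. The neuronal sum was higher too (68490 to 70792, then 71401 to 75311) and the hindbrain sum lower, without overlap. The median of the neuronal markers went the other way, at −0.04 log2, and that of the hindbrain markers was −0.32. The part of these markers was not tested.

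The time changes of both operation groups were set against each other in a test of their difference, UVD minus SO. No arm passed (limma adjusted p of 0.492 to 0.967), where 0.237% of all miRNAs did, and no arm had an unadjusted p under 0.05. Of all 422 miRNAs, 37 had, 20 of them (4.74% of all) on the lower side and 17 on the higher side. The median difference was 0.02 log2, with a range of −0.10 (miR-431) to 0.21 (miR-127-5p). Without UVD 4 h replicate 2 the median difference was 0.04. A p above the threshold with 2 arrays per group does not show that the time changes were alike.

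Against the SO group at 4 h, the early difference after loss of the labyrinth, 8 of 9 arms were on the negative side of 0 in the UVD group. None passed limma's adjusted test, where 0.474% of all miRNAs did, and 2 had an unadjusted p under 0.05, against 11.4% of all miRNAs that were lower by that rule. Both UVD arrays lay below both SO arrays in 6 of 9 arms, against 28.4% of all miRNAs, and above them in 1, miR-431, against 22.5%. The median change of the arms was −0.14 log2, and that of all miRNAs −0.01. miR-127-5p was at −0.25 (SE 0.07, 95% interval −0.42 to −0.08, limma adjusted p = 0.247). miR-136-3p was at −0.21 (SE 0.06, interval −0.36 to −0.06, limma adjusted p = 0.247). Near these were miR-136-5p at −0.23 (limma adjusted p = 0.376) and miR-127-3p at −0.22 (adjusted p = 0.386). The miR-433 and miR-434 arms were between −0.14 and −0.03. miR-431 was at 0.11 (interval −0.20 to 0.42, limma adjusted p = 0.666), a direction that turned with cyclic loess (−0.0145).

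This comparison uses the same SO 4 h arrays as the SO time change, so a high value there enters both. Without SO 4 h replicate 1 the median of the arms was −0.08, and without UVD 4 h replicate 2 it was −0.20. The count of arms with an unadjusted p under 0.05 was 0 without UVD 4 h replicate 1, and 1 without UVD 4 h replicate 2 or SO 4 h replicate 1. Bringing arrays to a common 75th percentile moved the median of all 422 to 0.15 and that of the arms to −0.0095, and miR-433-3p, miR-433-5p and miR-434-3p turned positive (0.0429, 0.0894 and 0.107). The arms were then lower than the median of all miRNAs by 0.16, against 0.13 with quantile normalization. The hindbrain markers given above moved with this comparison as well, with a median of −1.09 log2 and neither of the 2 past the test. In the UVD group the sum for microglia and leukocytes was higher without overlap (3444 to 3497 against 3161 to 3178). So were those for muscle (2127 to 2145 against 1599 to 2001) and choroid plexus (3991 against 3860). The medians were 0.10 log2 for microglia and leukocytes, 0.52 for muscle and 0.05 for choroid plexus, with no member past the test. The oligodendrocyte sum was lower without overlap (53601 to 54284 against 54661 to 56808), though the median of its 3 markers was 0.00 log2. The part of these markers was not tested.

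The UVD and SO groups were compared in the same way at 4 d. No arm passed the adjusted test, as did 0% of all miRNAs, and no arm had an unadjusted p under 0.05, against 1.42% of all miRNAs that were lower by that rule. A further 10 of the 422 miRNAs were higher by the same rule. The arrays did not overlap in 3 of 9 arms, miR-127-3p, miR-136-3p and miR-433-3p, all lower in the UVD group, against 17.3% of all miRNAs, and 12.1% of all miRNAs were higher without overlap. The median of the arms was −0.10 log2 and that of all miRNAs −0.02. The largest differences were those of miR-127-3p at −0.21 (95% interval −0.50 to 0.08, limma adjusted p = 0.745) and miR-136-5p at −0.20 (interval −0.49 to 0.08, adjusted p = 0.745). miR-431 was at 0.01 (interval −0.30 to 0.33) and miR-433-5p at −0.02 (interval −0.22 to 0.17), and leaving out single arrays turned the sign of both. The median was −0.02 without SO 4 d replicate 1, −0.15 without SO 4 d replicate 2 and −0.06 without UVD 4 d replicate 2. Summed markers differed without overlap at 4 d as well. Those of choroid plexus (5220 to 6900 in UVD against 3991 to 4211 in SO), microglia and leukocytes (3853 to 4137 against 3665 to 3824) and neurons (71401 to 75311 against 67360 to 70918) were higher in the UVD group, and those of oligodendrocytes (45282 to 53601 against 55182 to 59613) lower. The medians of the lists were 0.54, 0.03, 0.04 and −0.14 log2 in that order. No member of these lists passed the test, and their part was not tested. These 2 SO 4 d arrays also enter the SO time change, and the UVD 4 d arrays the UVD time change.

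**Figure D3:**
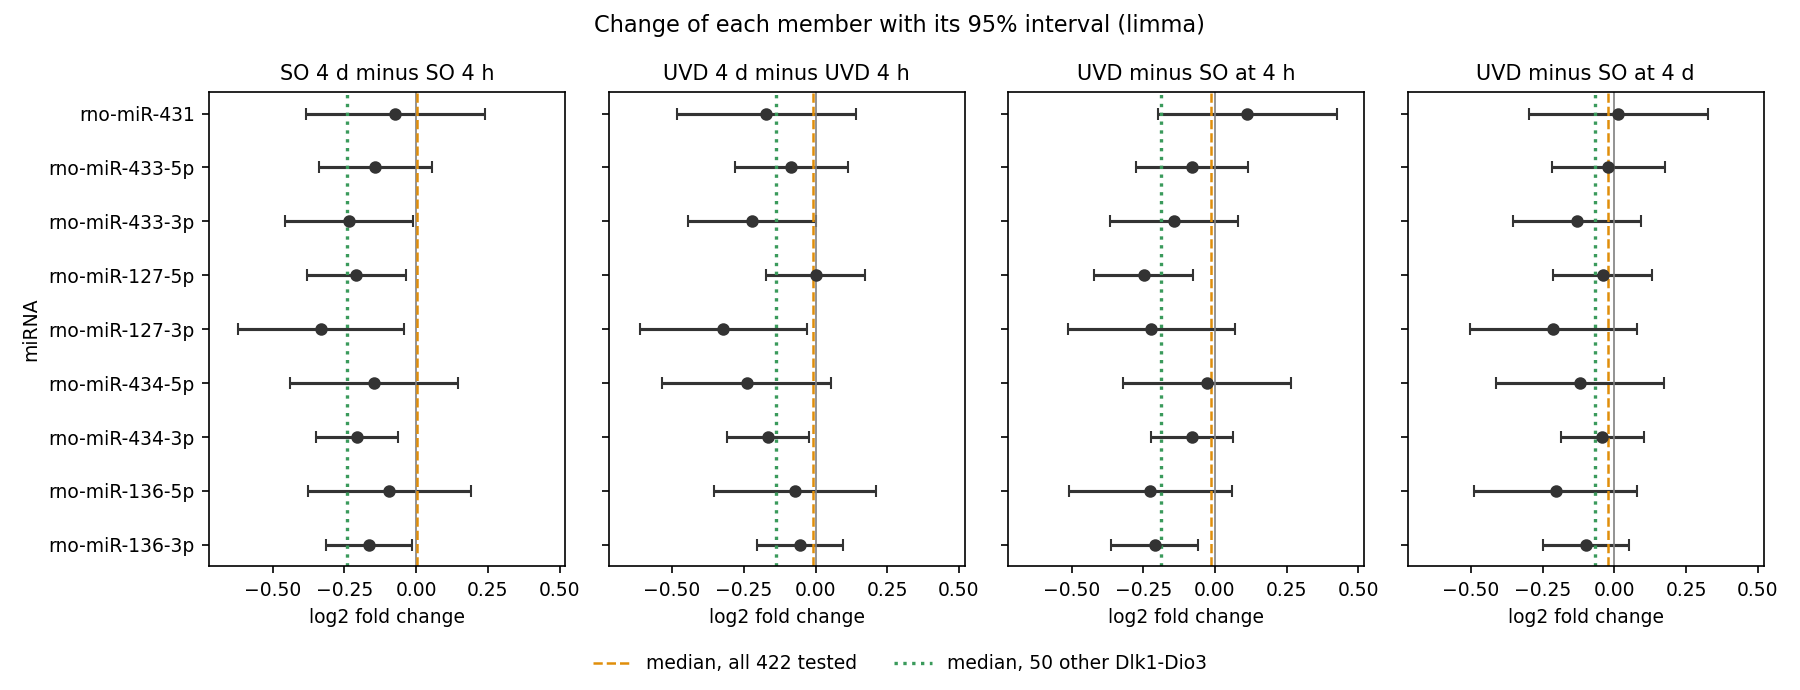
Log2 fold change of each arm (points) with its 95% interval from limma (bars) in the 4 comparisons of 2 groups; the dashed line is the median of all 422 miRNAs tested and the dotted line that of 50 other Dlk1-Dio3 miRNAs. With quantile normalization, points lie left of 0 for 9, 8, 8 and 8 arms from the left panel to the right; scaling on the 75th percentile of all miRNAs left 5 arms negative in the SO time change and 5 in the difference at 4 h.

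The methods' t-test gave 4, 4, 4 and 1 of the 9 arms at a p under 0.15, the limit in the study's methods, for the SO time change, the UVD time change, the difference at 4 h and the difference at 4 d. Over all miRNAs with a defined test the shares were 34.4%, 27.4%, 34.0% and 13.3% in that order. After Benjamini-Hochberg adjustment 0 arms passed in any of them, the smallest adjusted p being 0.169 at 4 h. For a single miRNA, an exact permutation test of 2 arrays against 2 cannot give a p below 0.333. The study's selection rule joined its p limit to a cut on fold change, wider for the UVD time change. No arm met both parts in any of the 4 comparisons. Among arms under the p limit, the lowest fold changes were 0.851 (miR-433-3p, SO time change) and 0.800 (miR-127-3p, UVD time change). At 4 h the lowest was 0.841 (miR-127-5p), and at 4 d it was 0.862 (miR-127-3p).

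Each arm was read by several probes. Of the 9 arms, 8 had 2 probes with 8 spots each, and miR-433-5p had 4 probes with 4 spots each. For miR-127-3p they were −0.29 and −0.35 log2 in the SO time change and −0.34 and −0.31 in the UVD time change. For miR-136-3p at 4 h they were −0.21 and −0.21. Those of miR-431 gave −0.04 and −0.15 in the SO time change, and 0.14 and 0.05 at 4 h. In some small changes the probes of an arm differed in sign, as in the UVD time change of miR-127-5p (−0.04 and 0.0036) and at 4 d in miR-433-5p, whose 4 probes ran from −0.07 to 0.04. For miR-434-5p at 4 d they were −0.05 and −0.14.

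Both arms of a hairpin come from the same precursor, and 4 hairpins had both arms among the 9. Over the 8 arrays, Pearson's r between the log2 values of such a pair was 0.81 for miR-127, 0.84 for miR-136, 0.82 for miR-433 and 0.75 for miR-434. Their median was 0.81, near the 0.77 (0.53 to 0.96) of all 28 pairs of arms without miR-431. Pairs of one hairpin thus did not stand apart from pairs of different hairpins. The difference between the arms (3p minus 5p, log2, around its own mean) had an SD over arrays of 0.08 for miR-136, 0.10 for miR-433 and miR-434, and 0.15 for miR-127. In miR-127 this difference was lower by 0.32 at 4 d than at 4 h after UVD, and lower by 0.12 after SO, with no overlap of arrays in either. It was lower by 0.17 in UVD than in SO at 4 d, again with no overlap. The arm difference of miR-433 was lower by 0.14 at 4 d after UVD and lower by 0.11 in UVD than in SO at 4 d, without overlap. That of miR-136 was lower by 0.07 at 4 d after SO, without overlap, and overlapped in the other 3 comparisons, while that of miR-434 overlapped in all 4 comparisons. These shifts were read from the data and were not tested. Arm differences of other hairpins are not given, so no share over the array stands beside them. Without any difference between groups, 2 arrays against 2 fail to overlap with a probability of 0.333.

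Across hairpins the arms also moved together, with miR-431 apart. The median r over the 36 pairs of arms was 0.72 (−0.39 to 0.96), over 8 arrays that share a slide and a scaling. Without miR-431 the median of 28 pairs was 0.77 (0.53 to 0.96), and the 8 pairs with miR-431 had a median of 0.19 (−0.39 to 0.47). The highest r, 0.96, joined miR-127-3p and miR-433-3p. These values are descriptions, since differences between groups and between arrays of a group enter them alike. No r is given for pairs among all 422 miRNAs, so they stand without a reference. Of the arms, miR-431 had the largest SD between arrays of a group (0.13), and the part of that spread in its low r was not tested.

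The miRNAs outside the 9 whose log2 values were most like the arms' mean over the 8 arrays were miR-541-5p (r = 0.99), miR-376a-3p (0.98), miR-383-5p (0.97), miR-296-5p (0.97) and miR-540-5p (0.97). Of these, miR-541-5p, miR-376a-3p and miR-540-5p are encoded in the Dlk1-Dio3 domain. miR-541-5p had a normalized intensity of 142 ± 3.89 in SO 4 h, 110.5 ± 10.6 in SO 4 d, 118 ± 5.86 in UVD 4 h and 100.4 ± 1.01 in UVD 4 d (SD, n = 2 each), in the order of groups seen for miR-127-3p. Of the 20 nearest miRNAs 11 (55%) were of the domain, which holds 50 (12.1%) of the 413 other miRNAs tested. The opposite pattern was closest in miR-352 (r = −0.96), miR-206-3p (−0.96) and let-7g-5p (−0.95). miR-206-3p, a muscle miRNA, stood at 30.7 ± 6.92 in SO 4 h, 64.8 ± 31.9 in SO 4 d, 44.9 ± 7.04 in UVD 4 h and 99.6 ± 15.9 in UVD 4 d (SD, n = 2 each). The sum of the muscle markers was 1599 to 2001, 2022 to 2380, 2127 to 2145 and 1771 to 2356 in these groups, lowest in SO 4 h like miR-206-3p but with UVD 4 d overlapping the other 3 groups.

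The rest of the Dlk1-Dio3 miRNAs, likewise made from the maternal chromosome, give the setting for the 9 arms. Of 76 on the array, 50 were tested, and 0 of 50 passed limma's adjusted test in any comparison. An unadjusted limma p under 0.05 was found, on the lower side, for 22 in the SO time change, 9 in the UVD time change, 17 at 4 h and 0 at 4 d. Over all miRNAs the shares lower by that rule were 14.5%, 6.4%, 11.4% and 1.42% in that order. The medians of the 50 were −0.24, −0.14, −0.19 and −0.07 log2 in that order, against −0.16, −0.17, −0.14 and −0.10 for the 9 arms. Arrays did not overlap, on the lower side, in 42, 30, 33 and 10 of the 50, against 28.7%, 25.4%, 28.4% and 17.3% of all miRNAs. On the higher side it was 0, 2, 2 and 0 of the 50, against 25.6%, 19%, 22.5% and 12.1%. SO 4 h held the highest group mean in 42 of 50 and UVD 4 d the lowest in 33 of 50, as in 8 of 9 arms each. The members of this list that were furthest from 0 were dim. miR-540-5p was at 10.5 and 8.39 on SO 4 h, 7.31 and 4.48 on SO 4 d, 6.15 and 7.45 on UVD 4 h, and 5.12 and 3.55 on UVD 4 d. Its log2 fold change was −0.72 in the SO group (limma adjusted p = 0.238) and −0.67 in the UVD group (adjusted p = 0.340). miR-381-5p was at −0.54 in the UVD group against SO at 4 d (limma adjusted p = 0.745). miR-299b-3p and miR-377-3p went undetected on UVD 4 h replicate 2, and miR-667-5p on both SO 4 h arrays, so no fold change is given for these 3.

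**Figure D4:**
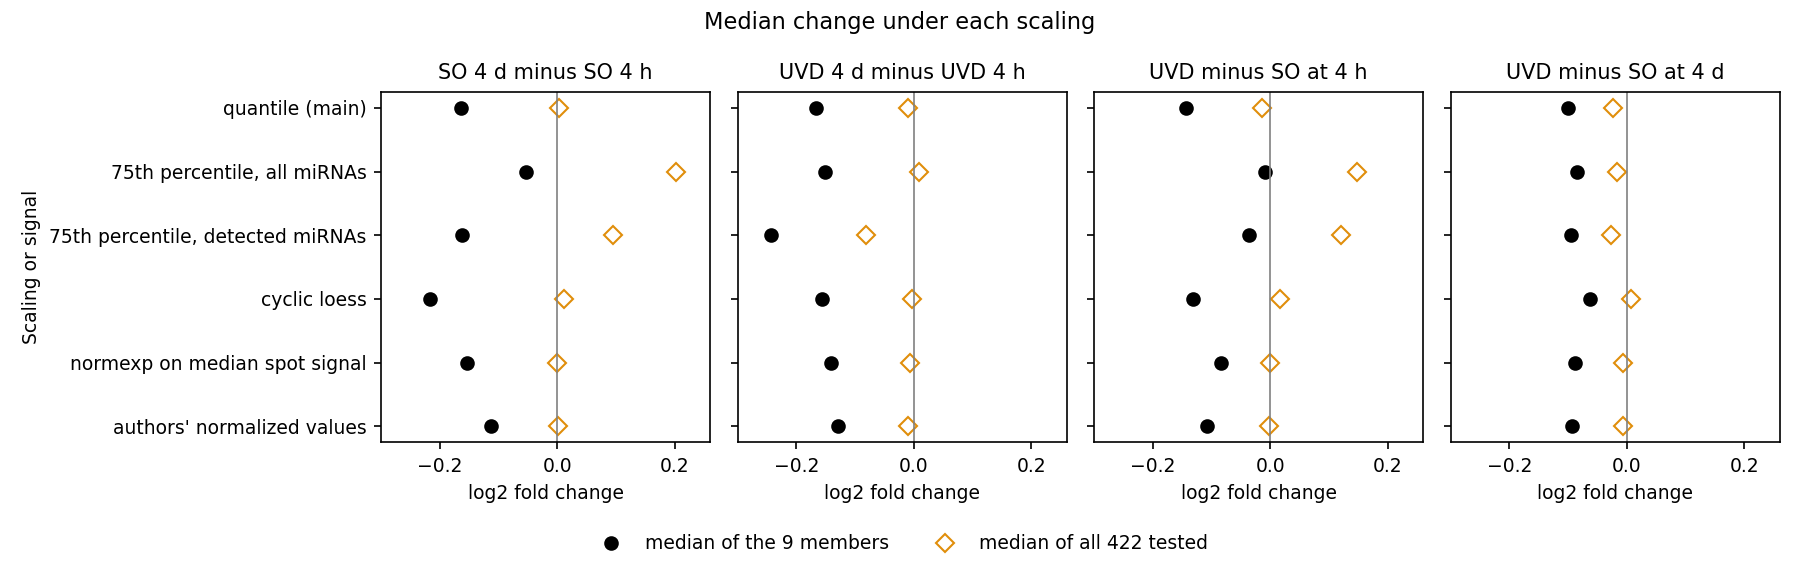
Median log2 fold change of the 9 arms (black points) and of all 422 miRNAs tested (open diamonds) in the 4 comparisons of 2 groups, under quantile normalization (top) and 5 other scalings or signals. The arms' median lies below that of all miRNAs in every panel and setting shown, while scaling on the 75th percentile of all miRNAs moves all miRNAs to 0.20 in the SO time change and 0.15 at 4 h, turning 4 and 3 arms positive there.

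The arms' median stayed below 0 and below the median of all miRNAs under every scaling and signal drawn, in the 4 comparisons of 2 groups. With the values as the authors normalized them, the medians of the arms were −0.11 in the SO time change, −0.13 in the UVD time change, −0.11 at 4 h and −0.09 at 4 d. By the same values 9, 9, 8 and 7 of 9 arms were negative. No setting brought any arm past limma's threshold.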

How the data were processed

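RNA from pooled left MVNs was labeled with Cy3 and read on 8 1-color Agilent rat miRNA arrays. The authors deposited the scanner's intensity per spot and per miRNA (Agilent Feature Extraction 10.7.3.1, per the file headers) and their own quantile-normalized intensity values on a linear scale. Total gene signals of all miRNAs were quantile normalized over the 8 arrays here, values under 1 were set to 1, and log2 was taken. A group mean model (limma 3.58.1, R 4.3.3, lmFit then eBayes) was fitted to the 422 miRNAs that both arrays of any group detected. Benjamini-Hochberg adjustment was over these 422, with a threshold of 0.05. The same model was also run on simulated arrays whose means and spreads came from these data. Values were summarized with Python 3.11.15, pandas 2.3.3 and SciPy 1.17.1. Groups and replicate numbers came from the sample titles.

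The 9 arms and the lists were chosen with earlier results of these data known. Named besides them were the 5 tested miRNAs most like and the 3 least like the arms' mean by Pearson's r over arrays, and the 3 largest changes among other Dlk1-Dio3 miRNAs in each comparison. The marker lists were neuron, oligodendrocyte, choroid plexus, microglia and leukocyte, erythroid, muscle and hindbrain. Of these, oligodendrocyte and erythroid had medians between −0.27 and 0.37 log2 over the 4 comparisons and 0 members past the test. The alternatives tried were scaling on the 75th percentile, cyclic loess, normexp (offset 50) on the median spot signal, the authors' normalized values, a floor of 5, other detection filters, a variance trend, a replicate block, the methods' t-test and leaving out each array. Undefined t-tests (8 to 13 miRNAs per comparison, from tied values) were left out. The precision is limited by 2 arrays per group, whose p-values measure the spread between pools.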

Additional observations from a re-analysis of the deposited data

How the results depend on the processing

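No arm passed limma's threshold in any of the 4 comparisons of 2 groups under any of 18 alternatives (smallest adjusted p = 0.0705, with normexp in the SO time change). Of 630 arm changes recomputed from a value other than 0, 606 kept their sign, 23 turned and 1 came to 0 (miR-434-3p at 4 d, without SO 4 d replicate 1). miR-127-5p in the UVD time change, at 0 with quantile normalization, ranged from −0.104 to 0.0274. With the 75th percentile of all miRNAs, signs turned in the SO time change for miR-136-5p (0.0663), miR-136-3p (0.0130), miR-433-5p (0.0245) and miR-434-3p (0.0304), and at 4 h for miR-433-3p (0.0429), miR-433-5p (0.0894) and miR-434-3p (0.107). The medians of the arms were then −0.0537 in the SO time change, −0.0095 at 4 h and −0.10 for the difference of the time changes. With the 75th percentile of detected miRNAs, miR-433-3p (0.0160), miR-433-5p (0.0626) and miR-434-3p (0.0799) turned at 4 h, and the medians were −0.24 in the UVD time change, −0.0364 at 4 h and −0.0862 for the difference of the time changes. Cyclic loess turned miR-431 at 4 h (−0.0145), miR-127-5p at 4 d (0.0152) and miR-433-5p at 4 d (0.0018), with a median of −0.22 in the SO time change. miR-433-5p at 4 d also turned with normexp (0.0091), whose median at 4 h was −0.0846, and with the authors' values (0.0134). Apart from the shift of all miRNAs under the 75th percentile, given in the report, the cause was not tested.

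Leaving out each array moved the medians of the arms between −0.17 and −0.10 (UVD time change), −0.24 and −0.11 (SO time change), −0.20 and −0.0759 (4 h), −0.15 and −0.0246 (4 d), and −0.0382 and 0.0866 (difference of the time changes). It turned signs within the ranges −0.0686 to 0.0094 for miR-434-5p at 4 h, −0.21 to 0.0722 for miR-136-5p in the UVD time change, −0.17 to 0.18 for miR-431 at 4 d, −0.26 to 0.0151 for miR-434-5p at 4 d, −0.0908 to 0.0190 for miR-127-5p at 4 d and −0.0874 to 0.0434 for miR-433-5p at 4 d. Same-numbered arrays did not deviate together (r between −0.25 and 0.19 over the 6 pairs of groups). Each group gives a single difference between its 2 arrays, so this cannot decide whether the numbers stand for a pairing. With the replicate number as a block 0 arms passed, 3 arms rather than 5 had an unadjusted p under 0.05 in the SO time change, and the medians of the arms were the same (−0.16, −0.17, −0.14 and −0.10 in the order SO time, UVD time, 4 h and 4 d). The arms were above background on all 8 arrays. Each comparison rests on 2 arrays per group.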
